A study of Homo sapiens with 6 samples.

Results

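The HIF-1 pathway and the hypoxia-induced genes that lie outside glycolysis and mitophagy were examined in human cardiomyocytes exposed to alcohol, with and without losartan. The 38 genes were chosen by function: 8 encode HIF subunits and the proteins that sense oxygen or degrade HIF, and 30 are genes that hypoxia is known to induce. The choice was made with earlier results of these data known. The shares of members given below therefore describe the list and do not test it. All 38 were found by symbol among the 21134 genes listed for the series, and 37 of them were among the 14926 genes that passed the filter on low counts. CA9, which encodes a cell-surface carbonic anhydrase, did not pass, with 7 and 5 counts in the control libraries, 2 and 4 in the alcohol libraries and 22 and 5 in the co-treated libraries.

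The cells were hiPSC-CMs, cardiomyocytes differentiated in culture from pluripotent stem cells, and the labels give the cell line as H9, a name otherwise used for a human embryonic stem cell line. Untreated cells formed the control group, a second group received 100 mM alcohol, and the last received 100 mM alcohol together with 1 μM losartan, both for 24 h; losartan is a blocker of the angiotensin II type 1 receptor. Each group held 2 libraries, and no group received losartan alone. Nothing states that the 2 libraries of a group came from separate differentiations, so the p-values measure only the spread between these libraries, which may be technical. For 1 gene with 2 libraries a side, the smallest two-sided p of an exact permutation test is 0.333, and the p-values below therefore come from edgeR, which shares the estimate of spread across genes.

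HIF-1 is a pair of an oxygen-regulated subunit, HIF-1α, and a partner that is always present, ARNT. When oxygen is plentiful, prolyl hydroxylases of the EGLN family mark HIF-1α, the VHL ubiquitin ligase complex binds the mark, and the subunit is degraded; HIF1AN adds a further hydroxyl group that blocks its transcriptional activity. When oxygen is short the subunit persists and switches on genes for blood vessel growth, collagen maturation, glycogen storage and pH control, as well as EGLN1 and EGLN3, which feed back on HIF. The amount of HIF1A mRNA therefore need not follow the amount of the protein, which was not measured in these libraries.

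HIF binds DNA at a short core, ACGTG or GCGTG, inside the hypoxia response element. The 250 bases ahead of the listed start were searched on both strands in RefSeq promoters (GRCh38.p14), where 30 of the 38 genes matched an entry. ACGTG occurred in 15 of the 30 promoters (50.0%), against 2501 of the 10933 promoters of tested genes (22.9%). GCGTG occurred in 12 of the 30 (40.0%), against 44.7% of the promoters of tested genes. CACGTG, which holds ACGTG on both strands and is also the E-box of MYC-type factors, occurred in 6 of the 30 (20.0%) against 8.63%. The median GC content was 68.8% in the 30 promoters and 64.8% in those of the tested genes. A match is a description of the letters and does not show binding. ANGPTL4, ANKRD37, BHLHE40, DDIT4 and KDM4B also hold ACGTG but had no unadjusted p under 0.05 in any comparison, and CA9 holds it but was not tested. In EGLN1, EGLN2, GBE1, P4HA1, LOX, FAM162A and WSB1 the 250 bases also hold annotated exon sequence of the gene itself. The windows below are those of the 9 genes that hold ACGTG and had an unadjusted p under 0.05 in some comparison, and they are given so that the letters can be read beside the values of these genes. P4HA2, GYS1, MXI1, STC2, RORA, KDM3A and ADM, which also had such a p, had a promoter entry without ACGTG in this window. NDRG1, SPAG4 and LOXL2 had such a p too, but matched no promoter entry and have no window to show. Each shows the site nearest the start in the gene's direction, with the matching letters in capitals (ACGTG, its other strand CACGT, or the palindrome CACGTG).
EGLN1 (chr1:231422284-231422312, minus strand, 13 bases ahead of the start): gggccgtggtgtACGTGcagagcgcgcag
EGLN2 (chr19:40799130-40799159, plus strand, 49 bases ahead): gcggggcgcggtCACGTGcccaccgggcga
GBE1 (chr3:81761741-81761769, minus strand, 112 bases ahead): tacccgctccggACGTGcgtcccggcatc
P4HA1 (chr10:73096936-73096964, minus strand, 86 bases ahead): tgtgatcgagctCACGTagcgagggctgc
PLOD2 (chr3:146161314-146161342, minus strand, 146 bases ahead): caaacagtccagACGTGgggcccaggagg
LOX (chr5:122078285-122078313, minus strand, 42 bases ahead): gtaactttgcaaACGTGccagaaagttta
CITED2 (chr6:139374784-139374813, minus strand, 153 bases ahead): cagcctctgcagCACGTGccgcgggcggcg
FAM162A (chr3:122384086-122384114, plus strand, 84 bases ahead): cagcgcgtggcgCACGTcctacacgcccc
WSB1 (chr17:27294044-27294073, plus strand, 58 bases ahead): gggctgtgacgtCACGTGgccgcgcccctg

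Levels are given as FPKM, fragment counts scaled by transcript length and library size, which allows genes to be compared per length, and differences as log2 fold changes from counts. The libraries summed to 4898287 to 5051448 expected counts, so that 3 counts, the limit that a count of 0 allows, correspond to 0.594 to 0.612 CPM (counts scaled to library size), for counting error only. Markers of cardiomyocytes were abundant: the FPKM of 9 genes summed to 28147 and 29077 in control, 26460 and 19773 in alcohol, and 22576 and 25118 in co-treated libraries. Of these 9 genes 5 were higher and 4 lower after alcohol, 2 of the lower ones at an unadjusted p under 0.05, with a median log2 fold change of 0.02. Those of smooth muscle (4 genes) summed to 1926 and 1689, 1451 and 722, and 991 and 1036 in the same order, with 3 of 4 lower in alcohol than in control at an unadjusted p under 0.05. The sums were 421 to 517 for fibroblast (7 genes), 5.88 to 10.5 for endothelial (5 genes), 9.08 to 16.1 for pluripotency (4 genes) and 36.7 to 49.4 for endoderm and liver (5 genes), and no marker was at 0 in all 6 libraries. In such bulk samples fewer cells of a type and less RNA per cell cannot be told apart.

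For the hypoxia genes alcohol replicate 2 was most often the lowest library and co-treated replicate 1 most often the highest. Alcohol replicate 2 had the lowest level of the 6 libraries for 20 of the 37 tested members, against 13.5% of all tested genes, and its median deviation from the mean of each member over the 6 libraries was −0.36 on the log2 CPM scale. Co-treated replicate 1 had the highest level for 17 of the 37, against 18.1% of all tested genes. The other medians were 0.25 and −0.02 in control replicates 1 and 2, −0.01 in alcohol replicate 1, and 0.25 and 0.01 in co-treated replicates 1 and 2. Alcohol replicate 2 was also the library with the lowest sums of cardiomyocyte and smooth muscle markers; the part of this in the results was not tested. In control and alcohol cells replicates differed more in these genes than in others: the median absolute difference between the 2 replicates was 0.33 against 0.18 for all tested genes in control, 0.35 against 0.19 in alcohol, and 0.20 against 0.21 after co-treatment, all in log2 CPM. Replicate 2 was the lower one for 31 of 37 members in control, 30 in alcohol and 25 after co-treatment, whereas 49.7%, 49.7% and 51.1% of all tested genes were lower in it.

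**Figure D1:**
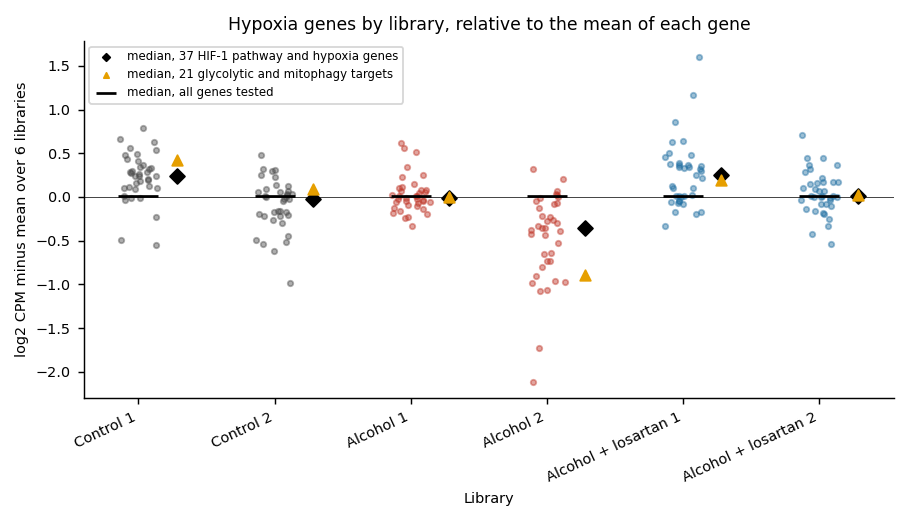
Each point is 1 of the 37 tested genes in 1 library, plotted as its log2 CPM minus the mean of that gene over the 6 libraries. Diamonds mark the median of these genes, triangles the median of 21 glycolytic and mitophagy targets, and short bars the median of all 14926 tested genes. Alcohol replicate 2 has the lowest diamond (−0.36) and the lowest triangle (−0.89), while the medians of all tested genes lie near 0 in every library.

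In control cells the members spanned a wide range of levels per length. MIF, a secreted cytokine-like protein, had the highest mean, 484 FPKM, followed by WSB1 at 141, FAM162A at 135 and HIF1A at 102. The lowest means were those of CA9 at 0.765, ANGPTL4 at 0.885 and EPAS1 at 1.02 FPKM. The oxygen-regulated subunit of HIF-1 was thus present at a far higher mRNA level than that of HIF-2, which EPAS1 encodes. VEGFA, the vascular endothelial growth factor, was also abundant, at 80.0 and 69.2 FPKM in the control libraries.

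The first comparison asked which of these genes differed after alcohol. Of the 37 tested members 31 were lower and 6 higher in alcohol than in control, with a median log2 fold change of −0.26, while the median of all tested genes was −0.0033. None was called at an edgeR adjusted p under 0.05, where 0.067% of all tested genes were called; DESeq2 called 1 (GBE1) and limma 0. At an unadjusted p under 0.05, 8 members were lower (21.6%, against a background of 5.78%) and 2 were higher (5.41%, against 5.27%). The 2 alcohol libraries lay below both control libraries for 16 members (43.2%, against 17.7% of all tested genes) and above them for 2 (5.41%, against 24.7%), as read in FPKM; in TMM-scaled CPM these were 14 and 2. The 8 lower members encode 2 enzymes of glycogen synthesis, 4 of collagen modification, a mitochondrial and a nuclear envelope protein, and no HIF subunit was among them.

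These counts and the median depended on which library was left out. Without alcohol replicate 2 the median was −0.07, whereas without alcohol replicate 1 it was −0.46. Without control replicate 1 the median was −0.10, and without control replicate 2 it was −0.45. Fewer members were lower at an unadjusted p under 0.05 without alcohol replicate 2 or control replicate 1, and more without either of the others. The number of all tested genes called also changed with the library left out. Such fits leave 1 library in a group, so only their medians are given here.

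**Figure D2:**
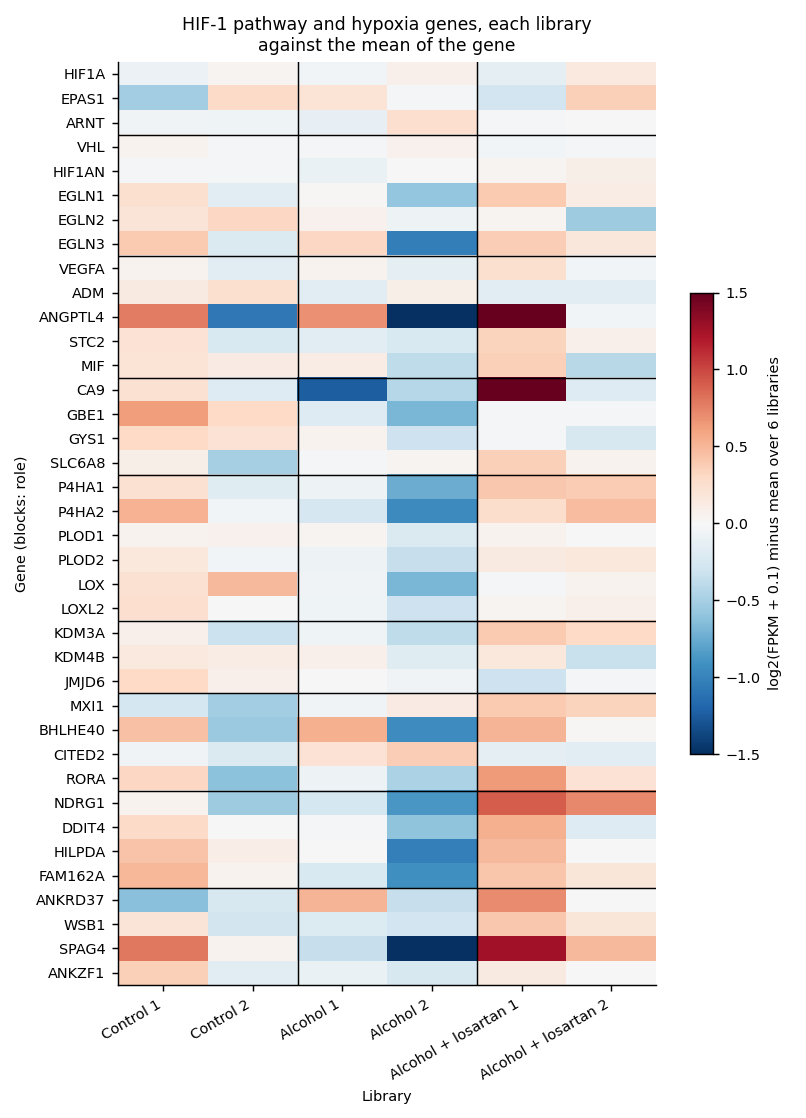
Each row is 1 of the 38 genes, in blocks by role, and each column is 1 library; the colour gives log2(FPKM + 0.1) minus the mean of the gene over the 6 libraries, with values beyond 1.5 drawn in the darkest shades. Most rows are darkest blue in alcohol replicate 2, the 3 HIF subunits and VHL are pale throughout apart from EPAS1, and NDRG1 is red in both co-treated libraries.

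The HIF subunits showed no difference beyond the spread of their replicates. HIF1A (gene ID 3091) was at 97.5 and 106.7 FPKM in control, 100.0 and 108.6 in alcohol and 94.0 and 114.6 after co-treatment, so all groups overlapped. Its log2 fold change after alcohol was −0.01 ± 0.13 (SE; edgeR adjusted p = 0.992), and its sign turned with other settings and with control replicate 2 (0.06) or alcohol replicate 1 (0.02) left out. ARNT, the constant partner, was at 11.4 and 11.3 in control, 10.8 and 14.1 in alcohol and 11.7 and 11.9 FPKM after co-treatment. The alcohol libraries lay on both sides of the controls, with a log2 fold change of 0.09 ± 0.14 (edgeR adjusted p = 0.870) that was −0.07 without alcohol replicate 2. EPAS1, the HIF-2 subunit, had only 0.72 and 1.33 FPKM in control, 1.25 and 1.05 in alcohol and 0.86 and 1.41 after co-treatment. At that level the replicates differed as widely as the groups (0.13 ± 0.39, edgeR adjusted p = 0.939), and the value was −0.21 without control replicate 1 and −0.02 without alcohol replicate 1.

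Among the factors that degrade or silence HIF, VHL and HIF1AN varied little across the 6 libraries. VHL, the substrate-binding part of the ubiquitin ligase, ranged from 16.1 to 17.2 FPKM over all libraries, with a log2 fold change after alcohol of −0.04 ± 0.12 (edgeR adjusted p = 0.939) that was 0.02 without control replicate 1. HIF1AN, the asparaginyl hydroxylase, was at 21.9 and 22.1 FPKM in control, 20.8 and 22.4 in alcohol and 23.0 and 23.8 after co-treatment. Its log2 fold change after alcohol was −0.07 ± 0.11 (edgeR adjusted p = 0.879). HIF1AN overlaps NDUFB8 and HIF1A overlaps HIF1A-AS1 on the opposite strand; whether the counting used strand is not given in the sources used here, so reads of such pairs may be mixed.

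The prolyl hydroxylases varied more, EGLN1 and EGLN3 with their lowest level in alcohol replicate 2 and EGLN2 in co-treated replicate 2. EGLN1, the main hydroxylase of HIF-1α, was at 16.1 and 12.1 FPKM in control, 13.7 and 9.05 in alcohol and 18.0 and 14.7 after co-treatment. The alcohol and control libraries overlapped (log2 fold change −0.34 ± 0.20, edgeR adjusted p = 0.592), and the value was −0.03 without alcohol replicate 2 and −0.09 without control replicate 1. EGLN3, the family member most strongly induced by hypoxia in many cells, was at 20.7 and 13.5 FPKM in control, 19.5 and 7.62 in alcohol and 20.4 and 17.7 after co-treatment. Only alcohol replicate 2 lay below both controls: the log2 fold change was −0.36 ± 0.33 (edgeR adjusted p = 0.750) with all libraries, 0.19 without alcohol replicate 2, 0.01 without control replicate 1 and −1.23 with alcohol replicate 1 left out, where it was called (edgeR adjusted p = 0.0332; range over 14 alternatives 0.0332 to 1.00). EGLN2 was at 21.9 and 23.8 FPKM in control, 20.1 and 18.1 in alcohol and 19.8 and 13.2 after co-treatment. Both alcohol libraries lay below both controls, with a log2 fold change of −0.30 ± 0.18 (edgeR adjusted p = 0.595). EGLN2 shares its exons with the read-through gene RAB4B-EGLN2, so the split of reads between them is uncertain. The read-through gene was assigned 32.9 and 0 expected counts in control, 35.9 and 66.4 in alcohol and 30.2 and 69.8 after co-treatment. EGLN2 was assigned 241 and 261, 221 and 193, and 210 and 144 in the same order. The read-through gene was thus highest in the library where EGLN2 was lowest. How much of the EGLN2 differences lies in this split was not tested.

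The largest set of members at an unadjusted p under 0.05 was that of collagen-modifying enzymes, of which all 6 were lower after alcohol and 4 passed that p. P4HA2 (gene ID 8974), a catalytic subunit of the prolyl hydroxylase that stabilizes the collagen helix, was at 31.9 and 21.6 FPKM in control, 18.6 and 11.4 in alcohol and 26.7 and 30.5 after co-treatment. Both alcohol libraries were below every other library. The log2 fold change was −0.86 ± 0.23 (edgeR adjusted p = 0.179), and it was −0.52 without alcohol replicate 2 and also without control replicate 1. LOX, which cross-links collagen and elastin, was at 3.31 and 3.96 FPKM in control, 2.69 and 1.70 in alcohol and 2.77 and 2.90 after co-treatment. Its levels were low, and the 2 groups did not overlap (−0.74 ± 0.25, edgeR adjusted p = 0.288; −0.40 without alcohol replicate 2). LOXL2, a related oxidase, was at 33.5 and 28.2 FPKM in control, 26.9 and 22.6 in alcohol and 28.9 and 29.6 after co-treatment. The difference was smaller than for LOX, at −0.35 ± 0.14 (edgeR adjusted p = 0.372). It was −0.20 without alcohol replicate 2 and also without control replicate 1. Reads of LOXL2 may be shared with ENTPD4, which overlaps it on the same strand. PLOD2, a lysyl hydroxylase needed for collagen cross-links, was at 35.0 and 30.3 FPKM in control, 29.7 and 24.6 in alcohol and 34.2 and 35.0 after co-treatment, a log2 fold change after alcohol of −0.30 ± 0.14 (edgeR adjusted p = 0.449). This PLOD2 value was −0.13 without alcohol replicate 2 and −0.16 without control replicate 1. The other members of the set, P4HA1 and PLOD1, had log2 fold changes of −0.44 and −0.17.

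Both glycogen enzymes were lower after alcohol. GBE1 (gene ID 2632), the branching enzyme, was at 56.5 and 45.2 FPKM in control, 32.2 and 22.7 in alcohol and 36.2 and 36.0 after co-treatment. The 3 groups did not overlap, with control highest and alcohol lowest. The log2 fold change was −0.92 ± 0.17, with the lowest adjusted p of all members in this comparison (edgeR adjusted p = 0.0726); leaving out alcohol replicate 2 gave −0.66 and leaving out alcohol replicate 1 gave −1.23, and the adjusted p ranged from 0.00200 to 0.444 over 14 alternatives. GYS1, the muscle form of glycogen synthase, was at 54.3 and 51.2 FPKM in control, 45.9 and 35.7 in alcohol and 43.6 and 37.5 after co-treatment. Both treated groups lay below control, and the log2 fold change after alcohol was −0.41 ± 0.14 (edgeR adjusted p = 0.306) or −0.21 without alcohol replicate 2. SLC6A8, the creatine transporter, differed in the other direction by less than the spread of its control libraries, which were at 20.5 and 13.7 FPKM, with 18.9 and 20.0 in alcohol (log2 fold change 0.14 ± 0.18).

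The steepest difference after alcohol was that of SPAG4 (gene ID 6676), which encodes a SUN-domain protein of the nuclear envelope. It was at 7.56 and 4.47 FPKM in control, 3.38 and 0.83 in alcohol and 10.5 and 6.11 after co-treatment. Both alcohol libraries lay below all 4 others. In log2 CPM replicate 2 minus replicate 1 was −1.78 in alcohol and −0.75 in control, while in FPKM the controls differed more. The log2 fold change of −1.53 ± 0.51 (edgeR adjusted p = 0.272) became −0.83 with alcohol replicate 2 left out and −2.89 with alcohol replicate 1 left out. FAM162A (gene ID 26355), a mitochondrial protein linked to cell death in hypoxia, was one of the most abundant members, at 156.0 and 114.3 FPKM in control, 94.3 and 58.6 in alcohol and 147.6 and 125.3 after co-treatment. Again both alcohol libraries were below all others. The log2 fold change was −0.86 ± 0.21 (edgeR adjusted p = 0.152; range over 14 alternatives 0.00738 to 0.766), and −0.52 without alcohol replicate 2. HILPDA, a lipid droplet protein, and DDIT4, an inhibitor of mTORC1, had alcohol libraries below both controls without reaching that p: HILPDA was at 11.6 and 9.21 FPKM in control and 8.63 and 4.18 in alcohol, and DDIT4 at 68.1 and 55.4 in control and 55.0 and 36.5 in alcohol. For DDIT4 this held only in FPKM, since in TMM-scaled CPM alcohol replicate 1 (98.0) lay just above control replicate 2 (97.7).

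Both members that were higher after alcohol at an unadjusted p under 0.05 encode regulators of transcription. CITED2 (gene ID 10370), which competes with HIF-1α for the coactivators CBP and p300 and thereby restrains HIF, was at 71.7 and 64.0 FPKM in control, 86.6 and 96.5 in alcohol and 67.6 and 66.1 after co-treatment. Only the alcohol libraries were raised, and no other group reached them. The log2 fold change was 0.39 ± 0.12 (edgeR adjusted p = 0.226), with 0.36 without alcohol replicate 2 and 0.31 to 0.50 over all libraries left out in turn. MXI1 (gene ID 4601), which binds MAX and opposes MYC, was at 13.7 and 11.5 FPKM in control, 15.9 and 17.9 in alcohol and 21.6 and 20.8 after co-treatment. The groups formed a series without overlap, lowest in control and highest after co-treatment. Its log2 fold change after alcohol was 0.39 ± 0.14 (edgeR adjusted p = 0.313). In these 2 genes alcohol replicate 2 was the highest of the alcohol and control libraries, opposite to its place in most members.

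The 5 members grouped as secreted factors (VEGFA, ADM, ANGPTL4, STC2 and MIF) did not pass an unadjusted p of 0.05 after alcohol. All 5 log2 fold changes were nevertheless below 0, from −0.31 for MIF to −0.07 for VEGFA. VEGFA was at 79.8 and 69.7 FPKM in alcohol, inside the range of its controls. MIF was at 498.2 and 470.6 FPKM in control, 469.2 and 332.7 in alcohol and 557.1 and 324.2 after co-treatment; MIF-AS1, on the opposite strand, was at 88.4 and 81.1, 79.7 and 55.9, and 91.5 and 48.2 FPKM in the same order, and the 6 libraries ranked in the same order for both. ANGPTL4, an inhibitor of lipoprotein lipase, differed most between replicates of 1 group, at 1.44 and 0.33 FPKM in control, 1.36 and 0.11 in alcohol and 3.01 and 0.78 after co-treatment, with replicate 2 the lower one in each group. BHLHE40, a repressor of transcription, also had the lower value in replicate 2 of each group, at 21.3 and 10.6, 22.7 and 8.10, and 22.3 and 15.8 FPKM. The difference between its replicates exceeded that between its groups in each comparison. In the set of demethylases and the hydroxylase JMJD6, log2 fold changes lay between −0.25 and −0.14.

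**Figure D3:**
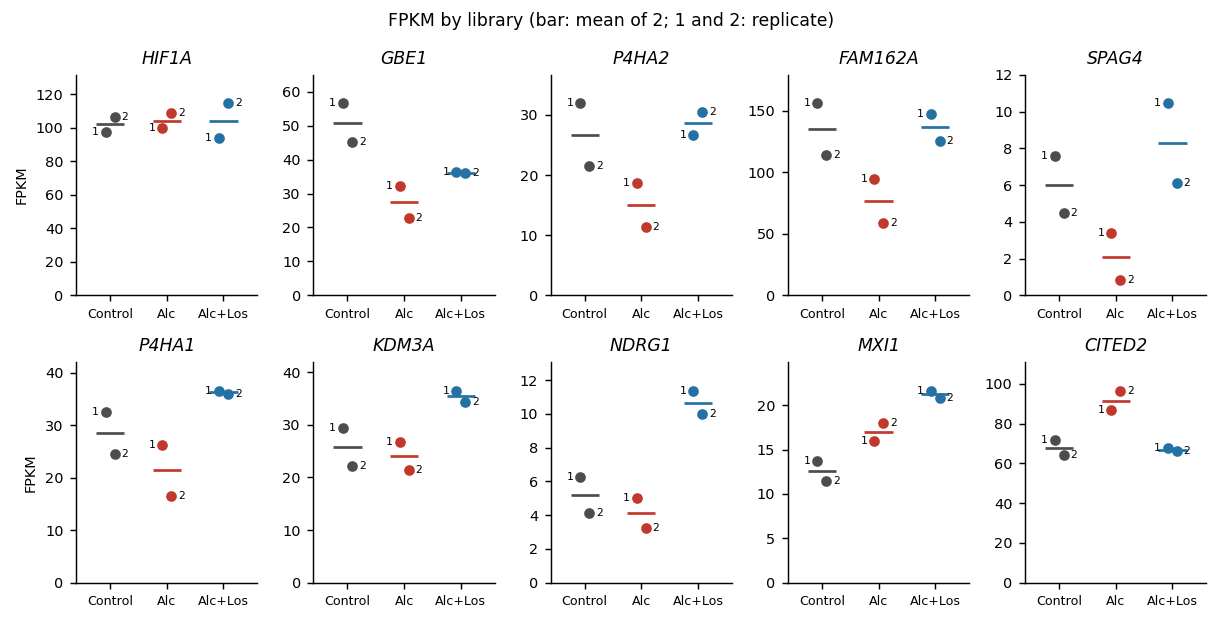
FPKM of 10 genes in each library, with the replicate number beside each point and a horizontal line at the mean of each group; every vertical axis starts at 0. HIF1A overlaps across groups, GBE1, P4HA2, FAM162A and SPAG4 are lowest in the 2 alcohol libraries, NDRG1 and MXI1 are highest in the 2 co-treated libraries, and CITED2 is highest in the 2 alcohol libraries.

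The second comparison asked how cells given losartan with alcohol differed from those given alcohol alone. It shares the alcohol libraries with the first comparison, so a low alcohol library lowers one set of fold changes and raises the other. Of the 37 tested members 28 were higher and 9 lower after co-treatment, with a median log2 fold change of 0.28 against 0.0023 over all tested genes. None was called at an edgeR adjusted p under 0.05, where 0.0134% of all tested genes were called, and DESeq2 and limma called 0. At an unadjusted p under 0.05, 13 members were higher (35.1%, against 2.84%) and 1 was lower (2.70%, against 2.71%). Both co-treated libraries lay above both alcohol libraries for 18 members (48.6%, against 18.0%) and below them for 2 (5.41%, against 14.3%). Without alcohol replicate 2 the median was 0.11, and without alcohol replicate 1 it was 0.48. Without co-treated replicate 1 it was 0.18. Fewer members were higher at that p without alcohol replicate 2 or without co-treated replicate 1.

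NDRG1 (gene ID 10397), a cytoplasmic protein induced by many stresses, had the lowest p among the members. It was at 6.25 and 4.12 FPKM in control, 4.99 and 3.25 in alcohol and 11.4 and 9.96 after co-treatment. Both co-treated libraries exceeded all 4 others, and the alcohol libraries overlapped the controls. The log2 fold change between co-treated and alcohol was 1.34 ± 0.25 (edgeR adjusted p = 0.314), with 1.04 without alcohol replicate 2; the adjusted p ranged from 0.0389 to 0.990 over 14 alternatives and was 0.0397 without control replicate 2. Against control it was 0.98 ± 0.24 (edgeR adjusted p = 0.103).

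Of the 8 members that were lower after alcohol at an unadjusted p under 0.05, 7 had both co-treated libraries above both alcohol libraries in FPKM, and GYS1 did not. The share over all tested genes was 18.0%. These 8 were picked for low values in the same alcohol libraries, which by itself favours such a position. The count therefore cannot show an effect of losartan on them. SPAG4 differed from alcohol by 1.94 ± 0.49 on the log2 scale (edgeR adjusted p = 0.587), or 1.24 without alcohol replicate 2. P4HA2 differed by 0.90 ± 0.23 and FAM162A by 0.82 ± 0.21 (edgeR adjusted p = 0.587 for both), and without alcohol replicate 2 these were 0.57 and 0.48. Against control the same 3 genes had log2 fold changes of 0.41, 0.04 and −0.04. PLOD2 and LOXL2 stood at 0.03 and −0.12 against control, whereas LOX (−0.45), GYS1 (−0.44) and GBE1 (−0.54) stood lower. For GBE1 the co-treated libraries stayed between the other groups: they were 0.38 ± 0.17 above alcohol (edgeR adjusted p = 0.896), only 0.12 without alcohol replicate 2, and 0.54 below control. PLOD2 differed from alcohol by 0.33 ± 0.14 (edgeR adjusted p = 0.881), and by 0.17 without alcohol replicate 2. LOX and LOXL2, whose co-treated libraries were also above both alcohol libraries in FPKM, did not pass an unadjusted p of 0.05. Their log2 fold changes were 0.28 and 0.23, and GYS1 differed from alcohol by −0.03. For LOX the order held only in FPKM. In TMM-scaled CPM its alcohol replicate 1 (14.8) lay above co-treated replicates 1 (14.6) and 2 (13.9).

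Other members were higher after co-treatment without having passed that p after alcohol. P4HA1, the other catalytic collagen hydroxylase subunit, was at 32.6 and 24.5 FPKM in control, 26.3 and 16.5 in alcohol and 36.6 and 36.1 after co-treatment. Its co-treated libraries were the 2 highest of the 6, with a log2 fold change against alcohol of 0.75 ± 0.20 (edgeR adjusted p = 0.646) and 0.42 without alcohol replicate 2. KDM3A, a demethylase of lysine 9 on histone H3, was at 29.4 and 22.3 FPKM in control, 26.7 and 21.4 in alcohol and 36.5 and 34.3 after co-treatment. It too was highest in both co-treated libraries (0.53 ± 0.16, edgeR adjusted p = 0.774). WSB1, a ubiquitin ligase adaptor, was at 163.6 and 118.1 FPKM in control, 124.1 and 117.6 in alcohol and 190.0 and 162.1 after co-treatment. Control replicate 1 lay between the co-treated libraries, while both alcohol libraries were below them (0.53 ± 0.16, edgeR adjusted p = 0.760). RORA, an orphan nuclear receptor, was at 2.97 and 1.52 FPKM in control, 2.25 and 1.69 in alcohol and 3.78 and 2.79 after co-treatment (0.72 ± 0.28, edgeR adjusted p = 0.857; 0.49 without alcohol replicate 2).

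EGLN1, whose values stand above, was higher in co-treated than in alcohol cells by 0.50 ± 0.20 (edgeR adjusted p = 0.857), and by 0.20 without alcohol replicate 2. STC2, a secreted glycoprotein, was at 7.54 and 5.51 FPKM in control, 5.78 and 5.54 in alcohol and 8.19 and 6.84 after co-treatment, a difference between co-treated and alcohol of 0.40 ± 0.18 (edgeR adjusted p = 0.896). MXI1 was higher again after co-treatment, by 0.30 ± 0.14 over alcohol (edgeR adjusted p = 0.896). CITED2 was the 1 of the 9 lower members with an unadjusted p under 0.05, at −0.46 ± 0.12 on the log2 scale (edgeR adjusted p = 0.587), and this hardly moved without alcohol replicate 2 (−0.43) or alcohol replicate 1 (−0.51). HIF1A, EPAS1 and ARNT had log2 fold changes of −0.01, −0.03 and −0.08 in this comparison.

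**Figure D4:**
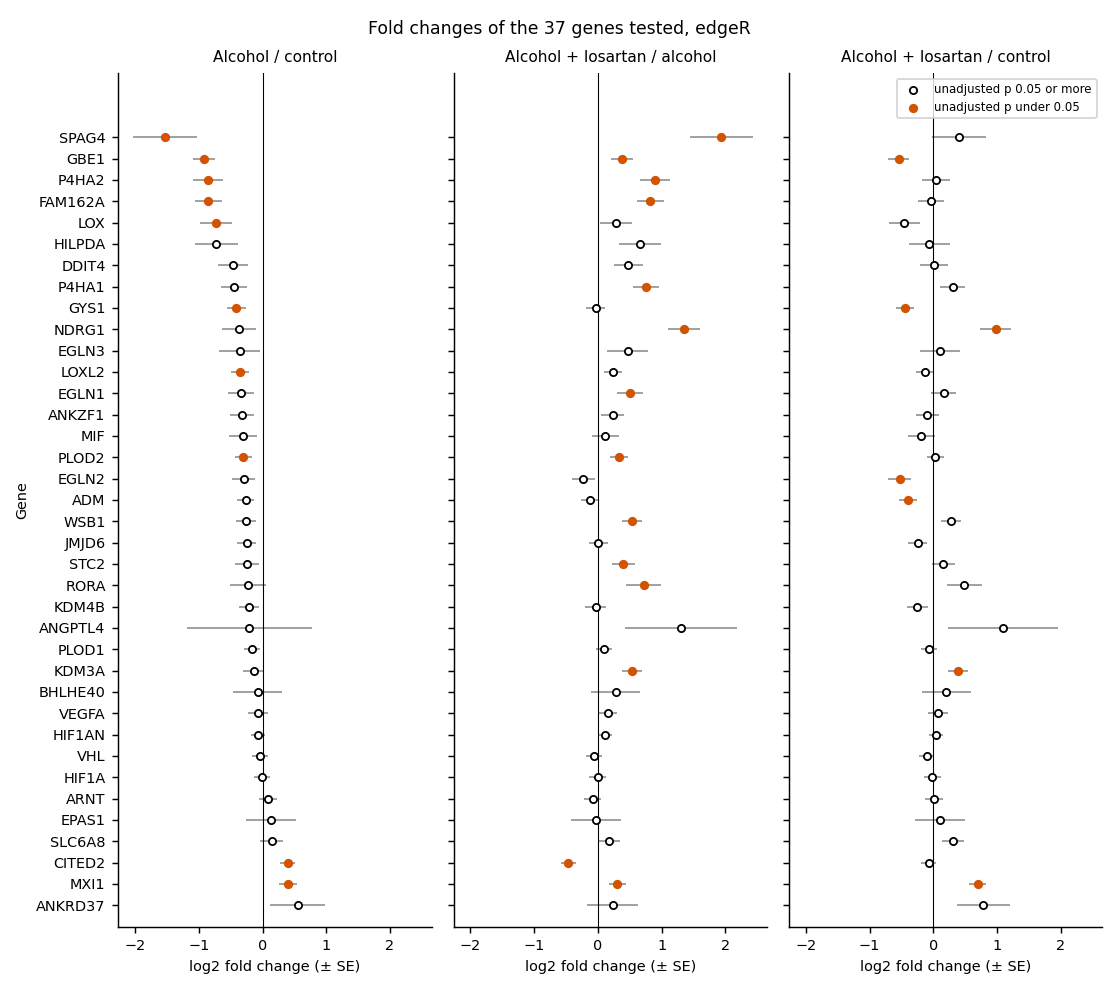
Log2 fold changes (points) with their standard errors (bars) for the 37 tested genes in the 3 comparisons, ordered by the first; filled orange points had an unadjusted p under 0.05. In the left panel 31 of 37 points lie below 0 and in the middle panel 28 of 37 lie above 0; both panels use the same 2 alcohol libraries.

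The last comparison set co-treated cells against control, and so does not use the alcohol libraries for its fold changes, although it shares the control libraries with the first and the co-treated libraries with the second. Here the members were spread around 0: 21 were higher and 16 lower, with a median log2 fold change of 0.03 against −0.0017 over all tested genes. None was called at an edgeR adjusted p under 0.05, where 0.362% of all tested genes were called; DESeq2 called 1 (MXI1) and limma 0. At an unadjusted p under 0.05, 4 members were lower (10.8%, against 6.37%) and 3 were higher (8.11%, against 6.26%). The co-treated libraries lay below both controls for 7 members (18.9%, against 16.3%) and above them for 7 (18.9%, against 27.1%). The median was 0.20 without control replicate 1, −0.08 without control replicate 2, and −0.05 and 0.10 with co-treated replicate 1 or 2 left out.

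MXI1 came nearest to the threshold, with a log2 fold change of 0.70 ± 0.14 (edgeR adjusted p = 0.0529; range over 14 alternatives 0.0372 to 0.349) that was 0.57 to 0.83 with any 1 library left out. NDRG1 was higher by 0.98 ± 0.24, as given above, and was 1.33 without control replicate 1 and 0.70 without control replicate 2. KDM3A was higher by 0.39 ± 0.16 (edgeR adjusted p = 0.325), or 0.20 without control replicate 2. Members that were lower included both glycogen enzymes, with GBE1 at −0.54 ± 0.17 (edgeR adjusted p = 0.196) and GYS1 at −0.44 ± 0.14 (edgeR adjusted p = 0.216). EGLN2 was lower by −0.53 ± 0.18 (edgeR adjusted p = 0.244), and by −0.28 without co-treated replicate 2, which was its lowest library. ADM, which encodes the vasodilator peptide adrenomedullin, was at 36.4 and 39.1 FPKM in control, 29.7 and 35.0 in alcohol and 29.6 and 29.7 after co-treatment, a difference between co-treated and control of −0.39 ± 0.14 (edgeR adjusted p = 0.242). GBE1, GYS1, EGLN2 and ADM thus had both alcohol and both co-treated libraries below both controls. For EGLN2, whose read-through gene RAB4B-EGLN2 was highest in co-treated replicate 2, whether this depends on the split of reads was not tested.

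Over the 3 comparisons 18 of the 37 tested members had no unadjusted p under 0.05 (the share over all tested genes was not counted). They were ANGPTL4, ANKRD37, ANKZF1, ARNT, BHLHE40, DDIT4, EGLN3, EPAS1, HIF1A, HIF1AN, HILPDA, JMJD6, KDM4B, MIF, PLOD1, SLC6A8, VEGFA and VHL. Among them ANKRD37, an ankyrin-repeat protein, had the highest log2 fold change after alcohol of any member, 0.55 ± 0.43, from 3.40 and 4.48 FPKM in control and 7.65 and 4.16 in alcohol, where the groups overlapped.

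Other genes of the pathway were set beside the members. Of 12 further parts of the HIF machinery (HIF3A, ARNT2, ubiquitin ligase subunits, coactivators and regulators of stability) 10 were tested, and after alcohol 7 were higher and 3 lower, with a median log2 fold change of 0.05 and 0 at an unadjusted p under 0.05. The lowest p belonged to RBX1, the RING subunit of the VHL ligase, at −0.30 ± 0.14 (edgeR adjusted p = 0.460), followed by SIAH1, a ligase that degrades prolyl hydroxylases, at 0.34 ± 0.17, and OS9 at 0.33 ± 0.16. In co-treated against alcohol cells 0 of the 10 passed that p, and against control 1 was higher, SIAH1, at 0.42 ± 0.16 (edgeR adjusted p = 0.306). Over the 10 genes the log2 fold changes after alcohol ran from −0.60 to 0.34.

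Of 30 other hypoxia-induced genes 26 were tested, with a median log2 fold change after alcohol of −0.15, and 5 lower and 3 higher at an unadjusted p under 0.05 (backgrounds 5.78% and 5.27%). The median was 0.06 without alcohol replicate 2 and 0.14 without control replicate 1, and in both fits fewer were lower at that p. TFRC, the transferrin receptor, was at 17.2 and 16.6 FPKM in control and 12.3 and 9.72 in alcohol (−0.66 ± 0.15, edgeR adjusted p = 0.121). ERO1A, an oxidase of the endoplasmic reticulum, was at 16.9 and 11.5 in control, 10.4 and 6.68 in alcohol and 18.6 and 15.4 FPKM after co-treatment (−0.77 ± 0.22 after alcohol, edgeR adjusted p = 0.201), and TMEM45A had a log2 fold change of −0.61 ± 0.20. In these 3 genes both alcohol libraries lay below both controls. Co-treated against alcohol, 6 were higher and 0 lower at that p (backgrounds 2.84% and 2.71%). Fewer were higher without alcohol replicate 2 or without co-treated replicate 1. The higher genes were led by INSIG2, which retains the sterol sensor in the endoplasmic reticulum. INSIG2 was at 15.6 and 13.8 FPKM in alcohol and 26.9 and 22.9 after co-treatment (0.75 ± 0.15, edgeR adjusted p = 0.444). Next came ERO1A at 0.98 ± 0.22 and ZNF395 at 0.53 ± 0.18. Against control 6 were higher and 2 lower after co-treatment (backgrounds 6.26% and 6.37%), among them PPP1R3C, a glycogen-targeting subunit of protein phosphatase 1, at 0.61 ± 0.14 (edgeR adjusted p = 0.0877), INSIG2 at 0.64 ± 0.15 and KDM4C at 0.49 ± 0.13.

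All 21 glycolytic and mitophagy targets of HIF were tested, and after alcohol all 21 were lower, 12 of them at an unadjusted p under 0.05 (background 5.78%), with a median log2 fold change of −0.55. ENO1 (−1.18 ± 0.26), PGK1 (−0.98 ± 0.24) and PGAM1 (−0.74 ± 0.19) had the lowest p. Alcohol replicate 2 was again the lowest library, with a median deviation of −0.89 from the mean over libraries. Without it the median after alcohol was −0.21, and without alcohol replicate 1 it was −1.17. With control replicate 1 left out it was −0.36. Fewer were lower at that p without alcohol replicate 2 or without control replicate 1. In co-treated against alcohol cells 20 of the 21 were higher, 11 at that p (background 2.84%), with a median of 0.52. This median fell to 0.10 without alcohol replicate 2 and to 0.37 without co-treated replicate 1. The number at that p fell in both fits as well. ALDOC (0.52 ± 0.16), PGK1 (0.71 ± 0.24) and the mitophagy receptor BNIP3 (0.99 ± 0.34) had the lowest p. Against control 14 were lower, 3 of them at that p (background 6.37%), namely HK1 (−0.40 ± 0.12), PGAM1 (−0.48 ± 0.19) and ENO1 (−0.61 ± 0.26), with a median of −0.11. Of the genes of these 3 lists 0 were called at an edgeR adjusted p under 0.05 in any comparison; DESeq2 called 1 (PPP1R3C, co-treated against control) and limma 0.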

How the data were processed

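RNA-seq libraries of 2 control, 2 alcohol and 2 co-treated samples were used. The submitters' processing notes name HISAT2 2.0.4, Bowtie2 2.2.5, RSEM 1.2.12 and the build hg38. The deposited values, all made by the authors, are expected counts, FPKM and a transcript length per gene and library. Of the expected counts above 0, 33.6% to 34.2% are not whole. The strand setting is not given in the sources used here. Expected counts were rounded and tested in R 4.3.3 with edgeR 4.0.16 (quasi-likelihood F test, two-sided, TMM, filterByExpr, all 6 libraries in 1 fit), and the p-values of the 14926 genes tested were adjusted together by the Benjamini-Hochberg method (threshold 0.05). FPKM served for levels and for overlap of libraries. Log2 CPM used a prior count of 2. The procedure was run on simulated counts with known changes, as a check that the direction of fold changes came out right. The simulation held no effect of single libraries, so it does not measure missed or false calls in these data.

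The members and the other gene lists were chosen with earlier results of these data known. A member was described in full where its unadjusted p was under 0.05, and the 8 HIF subunits and oxygen sensors were described after alcohol in any case. From each other list, the called genes or else the 3 with the lowest p were named. Alternatives were DESeq2 1.42.0, its size factors in edgeR, no filter, at least 10 counts in every library, only the groups compared, a replicate block, limma 3.58.1 on log2(FPKM + 1) or log2(FPKM + 0.1), and each library left out. After the data were seen, overlap of libraries was also counted in TMM-scaled CPM, and libraries were left out in turn for the other gene lists. Lists of overlapping genes came from GENCODE exons.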

Additional observations from a re-analysis of the deposited data

How the results depend on the processing

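The numbers of members called (0, 0 and 0 in alcohol against control, co-treated against alcohol and co-treated against control) were 1, 0 and 1 with DESeq2 (GBE1 and MXI1), 1, 0 and 1 with at least 10 counts in every library (the same genes), and 2 in the last comparison with only the groups compared (MXI1 and NDRG1). Over all tested genes same-numbered libraries did not deviate together (r = 0.11, −0.02 and 0.04 between the 3 pairs of groups), so the numbers were not taken to pair the samples. With a replicate block 2, 1 and 2 members were called (FAM162A and GBE1, then NDRG1, then MXI1 and NDRG1), 13 in place of 8 were lower after alcohol and 6 in place of 3 higher in co-treated cells than in control at an unadjusted p under 0.05, and 48, 5 and 136 of all genes were called. Of the other hypoxia-induced genes the block called ERO1A in the first 2 comparisons and INSIG2 and PPP1R3C in the last, and of the glycolytic and mitophagy targets ENO1, LDHA, PFKFB3 and PGK1 after alcohol. With 1 library left out the members called numbered 0 to 6, 0 to 4 and 0 to 2; those lower at that p numbered 3 to 17, 1 to 2 and 2 to 6, and those higher 0 to 3, 6 to 18 and 2 to 7. Fits with 1 library left out hold 1 library in a group, and for them no share of all tested genes at that p is given here. limma on log2(FPKM + 0.1) gave 8 in place of 13 higher in co-treated cells than in alcohol.

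Of all tested genes 10, 2 and 54 were called; DESeq2 gave 72, 5 and 123, no filter 2, 1 and 15, at least 10 counts 26, 0 and 78, only the groups compared 3, 4 and 158, limma with a pseudocount of 1 gave 1, 3 and 1 and with 0.1 gave 1, 2 and 3, and leaving out 1 library 1 to 220, 1 to 24 and 2 to 184. After alcohol, HIF1A turned to 0.0033 without the filter, and to 0.0317 and 0.032 with limma, and VHL to 0.0064 and 0.0068 with limma. With 1 library left out the ranges were −0.044 to 0.056 for HIF1A, −0.21 to 0.64 for EPAS1, −0.071 to 0.245 for ARNT, −0.0776 to 0.0246 for VHL and −1.23 to 0.19 for EGLN3. Among the other members described in full, none changed direction in the comparisons where their unadjusted p was under 0.05. The median of the members in co-treated against control (0.03) was −0.08 without control replicate 2 and −0.05 without co-treated replicate 1. Fold changes of members with no such p were not followed through the alternatives, apart from the 8 HIF subunits and sensors after alcohol. The causes were not tested. Members whose libraries did not overlap numbered 14 lower and 2 higher, 3 and 16, and 9 and 5 in TMM-scaled CPM, in place of 16 and 2, 2 and 18, and 7 and 7 in FPKM. CA9 had too few counts to be tested, and ANGPTL4 had the largest SE of the tested members after alcohol (0.98).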
